A study of Mus musculus with 6 samples.

Results

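Coagulation and fibrinolysis genes of endothelial cells were described in sorted bone marrow endothelium of diabetic and nondiabetic mice. The set held 9 genes out of 22180 with a probe set of their own on the array: Vwf, F8, F3, Thbd, Procr, Tfpi, Plat, Plau and Plaur. They were chosen by symbol, and each was measured by 1 probe set that names it alone. The diabetic group held 3 arrays from male C57BL/6J mice in which a high fat diet had brought on diabetes, and the nondiabetic group held 3 arrays from male C57BL/6J controls. Each array came from 5000 bone marrow endothelial cells isolated by fluorescence-activated sorting, whose total RNA was amplified before labelling. The text on the diet, 60 kcal% fat for 4 months, stands in the labels of all 6 arrays, so the labels leave unclear what the controls were fed. The mice's ages are not stated, and no label ties an array to its own mouse. The p-values therefore rest only on how far these arrays differ from each other, and part of that may be technical.

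Endothelium keeps blood fluid and also holds what is needed to stop bleeding. Clotting is set off when tissue factor (F3) meets factor VII, and factor VIII (F8), carried in plasma by von Willebrand factor (Vwf), speeds the steps that lead to thrombin. Endothelial cells restrain this with tissue factor pathway inhibitor (Tfpi), with thrombomodulin (Thbd), which turns thrombin into an activator of protein C, and with the endothelial protein C receptor (Procr). Clots are dissolved by plasmin, which is made by tissue-type (Plat) and urokinase-type (Plau) plasminogen activators, the latter bound at the cell surface by its receptor (Plaur). Several of these genes are also known outside endothelium: megakaryocytes make Vwf, monocytes and neutrophils carry Plaur, and Procr marks blood stem cells.

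Values are log2 expression values, on which 1 unit is a doubling, and they compare arrays for 1 gene, not genes with each other. Array medians lay between 5.21 and 5.28. Genes with a mean under the 40th percentile, 5.07, were set aside as dim, and 13308 genes were tested, all 9 coagulation genes among them. The marker list for endothelium in general was measured throughout, with 20 of 20 genes tested and a list mean between 8.89 and 9.55 on the 6 arrays. Markers of other cells were above the dim limit too: 12 of 12 measured for megakaryocytes and platelets and 11 of 13 for monocytes and macrophages. So were 7 of 7 for basophils and mast cells, with a list mean between 9.33 and 10.35. The limit lay under every array median, and 4 of 6 measured hepatocyte markers passed it, with a list mean between 5.28 and 5.74. Passing it therefore does not by itself show that a cell type was present. In a bulk sort, fewer cells of a type and less RNA per cell cannot be told apart.

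F8, Tfpi and Plaur lay higher on all 3 diabetic arrays than on any nondiabetic array, by 1.42-fold, 1.46-fold and 1.56-fold on average, and the other 6 genes overlapped between the groups. None of the 9 passed the test over all genes: limma called 0 of them, with an adjusted p = 0.997 for each, against 0.00751% of all tested genes called, which was the single gene Rabggtb. At an unadjusted p under 0.05, 3 of the 9 lay higher and 0 lower, where 3.19% of all tested genes lay higher and 1.07% lower, 4.25% in all. Groups that did not overlap, with the diabetic arrays above, were found for 3 of the 9 and for 5.28% of all tested genes, and with the diabetic arrays below for 0 of the 9 and 2.67%. Differences are given as diabetic minus nondiabetic. The median difference of the 9 genes was 0.16, and that of all tested genes was 0.019. The former moved with single arrays: it was 0.061 without diabetic replicate 1, 0.31 without diabetic replicate 2 and 0.37 without diabetic replicate 3. It was 0.10 with quantile normalization again, 0.26 and 0.36 with the general endothelial or the megakaryocyte marker mean as a covariate, and with array weights it turned to -0.028.

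**Figure D1:**
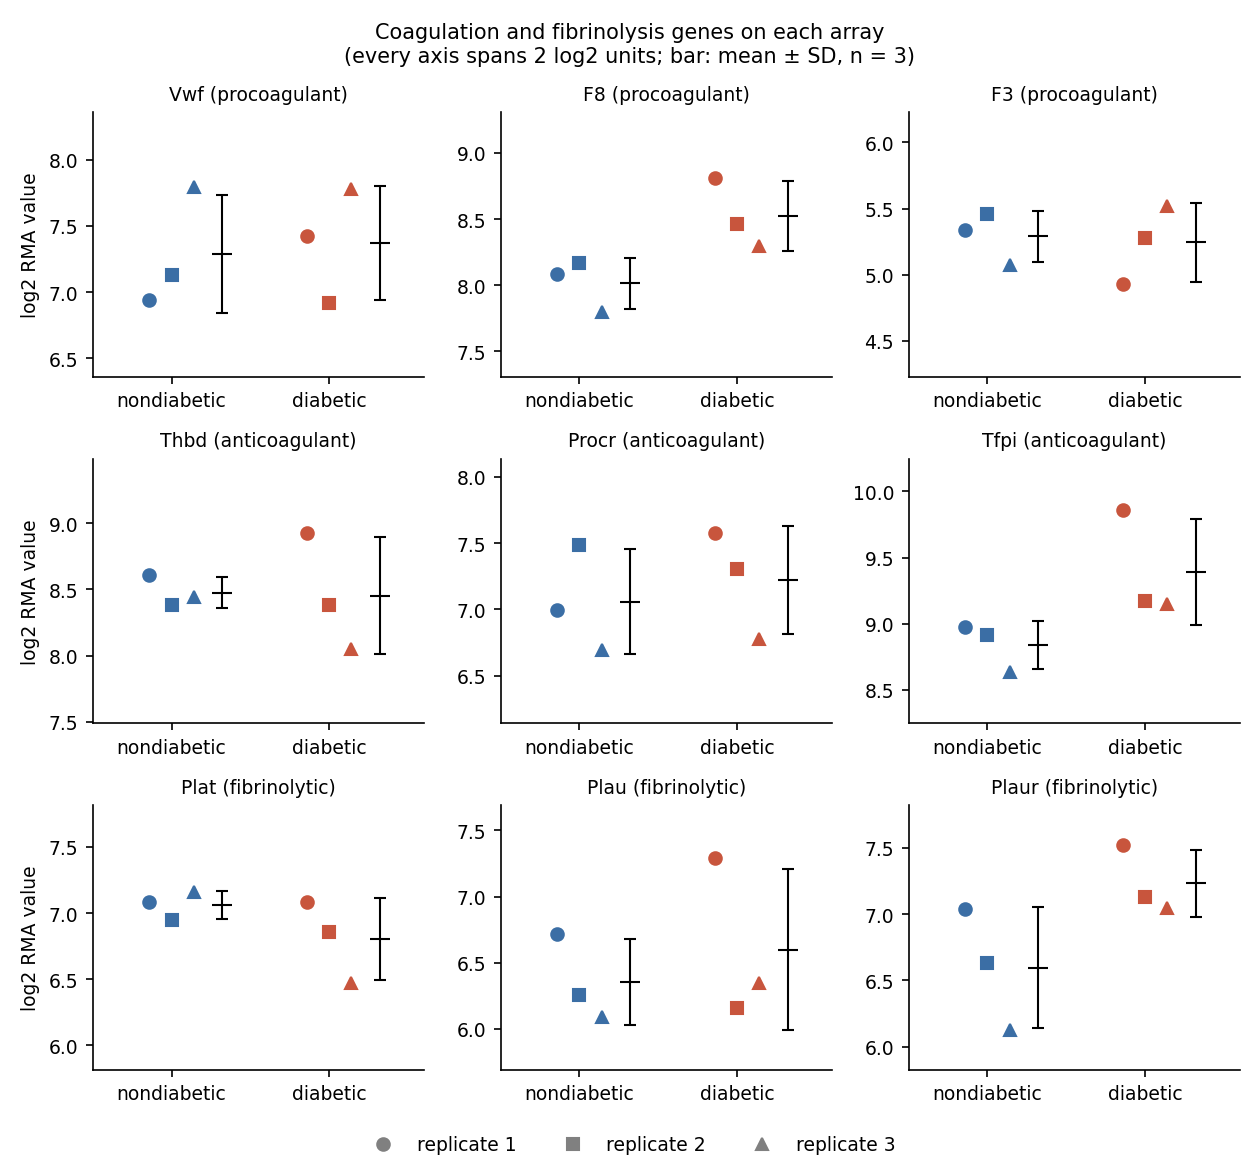
Log2 values of the 9 genes on each array, with nondiabetic arrays in blue, diabetic arrays in red, and a symbol for each replicate number; the bar beside each group is its mean ± SD (n = 3), and every panel spans 2 log2 units. The diabetic points of F8, Tfpi and Plaur all sit above the nondiabetic points, and the other 6 genes overlap.

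Among the procoagulant genes, the groups lay apart for F8 and overlapped for Vwf and F3. F8 encodes the cofactor that is missing in hemophilia A, and its main source is endothelium (probe set 17542781). It read 8.81, 8.46 and 8.30 on diabetic replicates 1, 2 and 3, and 8.08, 8.17 and 7.80 on nondiabetic replicates 1, 2 and 3. The lowest diabetic value was 0.13 above the highest nondiabetic value. The means were 8.52 ± 0.26 and 8.02 ± 0.19 (SD, n = 3 each), a difference of 0.51 (SE 0.19) with a 95% interval of 0.070 to 0.95 and an unadjusted limma p = 0.0281, while an exact permutation test gave p = 0.1. The latter is the smallest p that 3 arrays against 3 allow.

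Vwf, the multimeric protein that tethers platelets and that endothelium stores in Weibel-Palade bodies, varied more within each group than between them (probe set 17463205). It read 7.42, 6.92 and 7.78 on diabetic replicates 1, 2 and 3, and 6.94, 7.13 and 7.80 on the nondiabetic replicates. Replicate 3 was the highest array in both groups. The difference was 0.085 (SE 0.29), with an interval of -0.58 to 0.75 that includes 0. F3, the cell surface trigger of clotting, sat close to the dim limit of 5.07 (probe set 17402181). It read 4.93, 5.28 and 5.52 on the diabetic and 5.34, 5.46 and 5.08 on the nondiabetic arrays, with the groups overlapping and diabetic replicate 1 under the limit. The difference was -0.045 (SE 0.20), with an interval of -0.50 to 0.41.

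Among the anticoagulant genes, Tfpi stood higher on the diabetic arrays, while Thbd and Procr overlapped. Tfpi encodes an inhibitor of factor Xa and of the complex of tissue factor with factor VIIa (probe set 17387407). It read 9.86, 9.17 and 9.15 on diabetic replicates 1, 2 and 3, and 8.98, 8.91 and 8.64 on the nondiabetic replicates. Diabetic replicate 1 was well above the other 2 diabetic arrays, and these were 0.17 or more above every nondiabetic array. The means were 9.39 ± 0.40 and 8.84 ± 0.18 (SD, n = 3 each), a difference of 0.55 (SE 0.22) with a 95% interval of 0.032 to 1.07 and an unadjusted limma p = 0.0399, with an exact permutation p = 0.1.

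Thbd, the thrombin receptor that switches thrombin towards protein C, spread widely in the diabetic group alone (probe set 17392568). It read 8.93, 8.38 and 8.05 on diabetic replicates 1, 2 and 3, and 8.61, 8.38 and 8.44 on the nondiabetic replicates. The highest and the lowest of the 6 values were thus both diabetic, with SDs of 0.44 and 0.12 in the diabetic and nondiabetic groups, a gap in spread that was not tested. The difference was -0.025 (SE 0.23), with an interval of -0.56 to 0.51. Procr, which presents protein C to the thrombin and thrombomodulin complex, read 7.58, 7.30 and 6.78 on the diabetic and 6.996, 7.48 and 6.70 on the nondiabetic arrays (probe set 17378440). The groups overlapped, with replicate 3 the lowest in each, and the difference was 0.16 (SE 0.27; interval -0.46 to 0.78).

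Of the fibrinolytic genes, the receptor Plaur stood higher on the diabetic arrays, and the groups overlapped for the plasminogen activators Plat and Plau. Plaur encodes the surface anchor of urokinase, which also takes part in the movement of leukocytes (probe set 17474974). It read 7.53, 7.13 and 7.05 on diabetic replicates 1, 2 and 3, and 7.04, 6.63 and 6.12 on the nondiabetic replicates. The groups were apart by no more than 0.012, between diabetic replicate 3 and nondiabetic replicate 1, and the nondiabetic arrays spread over the wider range. The means were 7.23 ± 0.26 and 6.60 ± 0.46 (SD, n = 3 each), a difference of 0.64 (SE 0.25) with a 95% interval of 0.056 to 1.22, an unadjusted limma p = 0.0354 and an exact permutation p = 0.1.

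Plat, the main activator of plasminogen in blood and a product of endothelium, was the member with the lowest difference (probe set 17499962). It read 7.08, 6.86 and 6.47 on diabetic replicates 1, 2 and 3, and 7.08, 6.95 and 7.16 on the nondiabetic replicates. Diabetic replicates 2 and 3 were under all nondiabetic arrays, and replicate 1 was not. The difference was -0.26 (SE 0.19), with an interval of -0.70 to 0.18. Plau, the urokinase that Plaur binds, read 7.29, 6.16 and 6.35 on the diabetic and 6.71, 6.26 and 6.09 on the nondiabetic arrays (probe set 17297537). Diabetic replicate 1 stood apart from the other 5 arrays, and the difference was 0.25 (SE 0.31; interval -0.47 to 0.96).

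**Figure D2:**
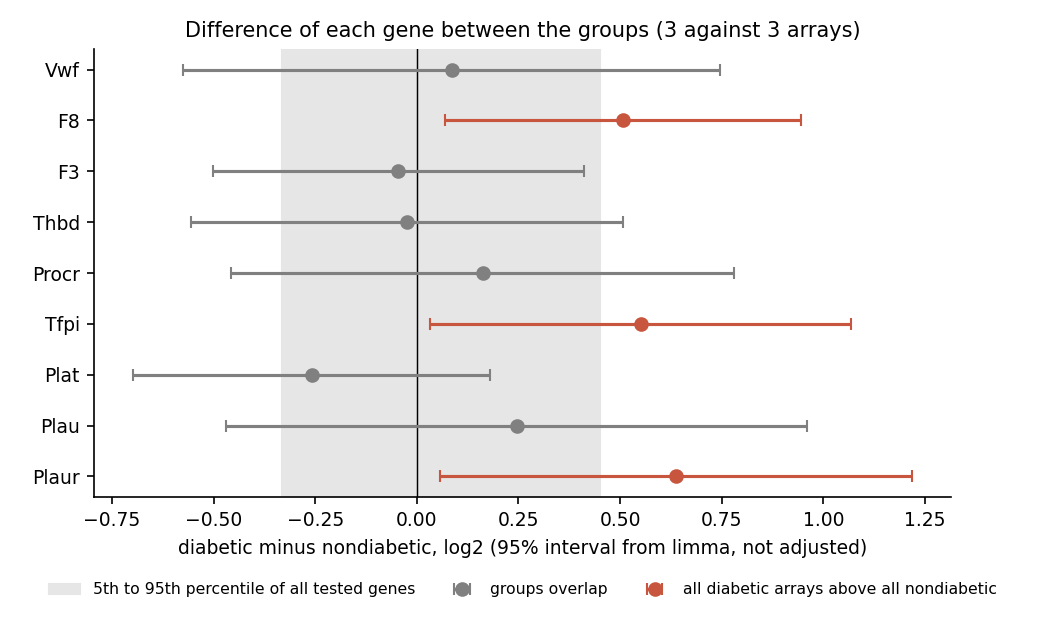
Difference of each gene between the diabetic and nondiabetic arrays on the log2 scale, with its 95% interval from limma before adjustment; red marks genes whose groups do not overlap, and the grey band spans the 5th to 95th percentile of the 13308 tested genes, -0.33 to 0.45. The intervals of F8, Tfpi and Plaur lie above 0, and those of the other 6 genes include it.

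Averaged by role, the 3 groups of genes differed by 0.18 to 0.23, and for 2 of them this rested on diabetic replicate 1. The mean of Vwf, F8 and F3 was 7.05 on the diabetic and 6.87 on the nondiabetic arrays, a difference of 0.18. The mean of Thbd, Procr and Tfpi differed by 0.23 and that of Plat, Plau and Plaur by 0.21, and the arrays overlapped between the groups for each role. Without diabetic replicate 1 the differences were 0.18 for the procoagulant, 0.013 for the anticoagulant and -0.0018 for the fibrinolytic genes. Leaving out each array in turn gave 0.11 to 0.26, 0.013 to 0.41 and -0.0018 to 0.34. Within each role the members were spread more widely than the roles were from each other, with F8 at 0.51 beside F3 at -0.045, Tfpi at 0.55 beside Thbd at -0.025, and Plaur at 0.64 beside Plat at -0.26.

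The promoters of the 3 genes whose groups did not overlap are shown because these genes stood higher on the same arrays. RefSeq start sites of assembly GRCm38.p6 were at hand for 5 of the 9 genes, with 6 sites in all, and not for Vwf, Thbd, Plat or Plau. Each sequence holds the 250 bases before a start site, 5′ to 3′ on the gene's strand. Capitals mark matches on either strand to 5 short motifs: the GC box GGGCGG, the CACCC box CACCC, the ETS core GGAAG, the GATA site GATAA and the AP-1 site TGANTCA.
F8 (chrX:75380042-75380291, minus strand): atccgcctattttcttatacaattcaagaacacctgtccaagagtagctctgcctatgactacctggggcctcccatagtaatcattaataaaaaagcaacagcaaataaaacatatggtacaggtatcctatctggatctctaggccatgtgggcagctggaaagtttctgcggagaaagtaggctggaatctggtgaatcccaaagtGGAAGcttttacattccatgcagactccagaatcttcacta
Tfpi, outer start site (chr2:84476760-84477009, minus strand): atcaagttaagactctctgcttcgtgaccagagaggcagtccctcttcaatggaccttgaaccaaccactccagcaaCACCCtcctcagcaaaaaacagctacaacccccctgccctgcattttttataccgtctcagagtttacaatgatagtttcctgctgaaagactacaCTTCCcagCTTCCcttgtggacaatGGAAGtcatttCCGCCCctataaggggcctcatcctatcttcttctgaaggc
Plaur (chr7:24462233-24462482, plus strand): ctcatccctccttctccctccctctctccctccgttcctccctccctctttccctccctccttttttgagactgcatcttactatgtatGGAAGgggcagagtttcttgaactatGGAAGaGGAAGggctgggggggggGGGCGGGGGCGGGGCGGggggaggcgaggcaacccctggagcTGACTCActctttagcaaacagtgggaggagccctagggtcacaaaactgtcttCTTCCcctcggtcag
The F8 window held 1 match, an ETS core 41 to 37 bases before the start. The outer Tfpi window held 3 ETS cores, 1 GC box and 1 CACCC box, and the inner Tfpi start site, at chr2:84474175-84474424, held the same numbers and 1 GATA site. The Plaur window held 4 ETS cores, a run of 3 GC boxes of which the last pair shares a base, and 1 AP-1 site 69 to 63 bases before the start. ETS cores, the 1 motif found in all 3 genes, occur in 64.1% of all 32851 promoter windows of this length, and GC boxes, CACCC boxes, GATA sites and AP-1 sites in 32.7%, 52%, 22.6% and 6.75%. AP-1 letters were also found before genes whose groups overlapped, with 2 matches for F3, of which 1 shares bases with a CACCC box, and 1 for Procr. GC content was 42.8% for F8, 48.4% for the outer Tfpi site and 59.6% for Plaur, beside a median of 52.4% over all windows.

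The profiles of F8, Tfpi and Plaur over the 6 arrays resembled each other, and diabetic replicate 1 was the highest array for each. Each of these genes was higher on every diabetic array, and part of their likeness follows from that. Likeness was measured as the root mean square difference between log2 profiles centred on their own mean, in log2 units over 6 arrays. Of the 36 pairs among the 9 genes, F8 and Tfpi were the closest at 0.11, followed by Thbd and Plat at 0.17 and Tfpi and Plaur at 0.19. Vwf was farthest from Plaur, at 0.66, the largest of the 36 distances. Among all tested genes, the nearest to F8 were Enc1, which encodes a kelch protein, Hrct1 and the F-box gene Fbxo31, at 0.023, 0.061 and 0.063. Nearest to Tfpi were the tumor necrosis factor receptor Tnfrsf1a at 0.032, 4833439L19Rik at 0.074 and Fkbp11, a prolyl isomerase of the secretory pathway, at 0.076. Nearest to Plaur were Unc93b1, which escorts Toll-like receptors to endosomes, at 0.086, the microtubule gene Map1b at 0.11 and the matrix proteoglycan gene Bgn at 0.12. The median tested gene was 0.36 from F8, 0.41 from Tfpi and 0.47 from Plaur.

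Diabetic replicate 1 and nondiabetic replicate 3 stood at opposite ends for most of the 9 genes. The former held the highest value of 6 genes and the lowest of 1, and 8 of its 9 values were above the gene's mean. The latter held the lowest value of 5 genes and the highest of 2. Relative to each gene's own mean, the average over the 9 genes was 0.39 on diabetic replicate 1, -0.027 and -0.053 on the other diabetic arrays, -0.016 and -0.061 on nondiabetic replicates 1 and 2, and -0.23 on nondiabetic replicate 3. Without diabetic replicate 1, the differences of F8, Tfpi and Plaur were 0.36, 0.32 and 0.49, and 0 of the 9 genes had an unadjusted p under 0.05. Without nondiabetic replicate 3 they were 0.40, 0.45 and 0.40, again with 0 genes. The count of 3 genes was kept without diabetic replicate 3, and it was 1 without diabetic replicate 2 (Tfpi), 2 without nondiabetic replicate 1 (F8 and Plaur) and 1 without nondiabetic replicate 2 (F8). Of all tested genes in the same fits, 2.19%, 3.16% and 4.16% lay higher at that threshold without diabetic replicates 1, 2 and 3. Without nondiabetic replicates 1, 2 and 3 the shares were 2.56%, 3.03% and 3.64%.

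**Figure D3:**
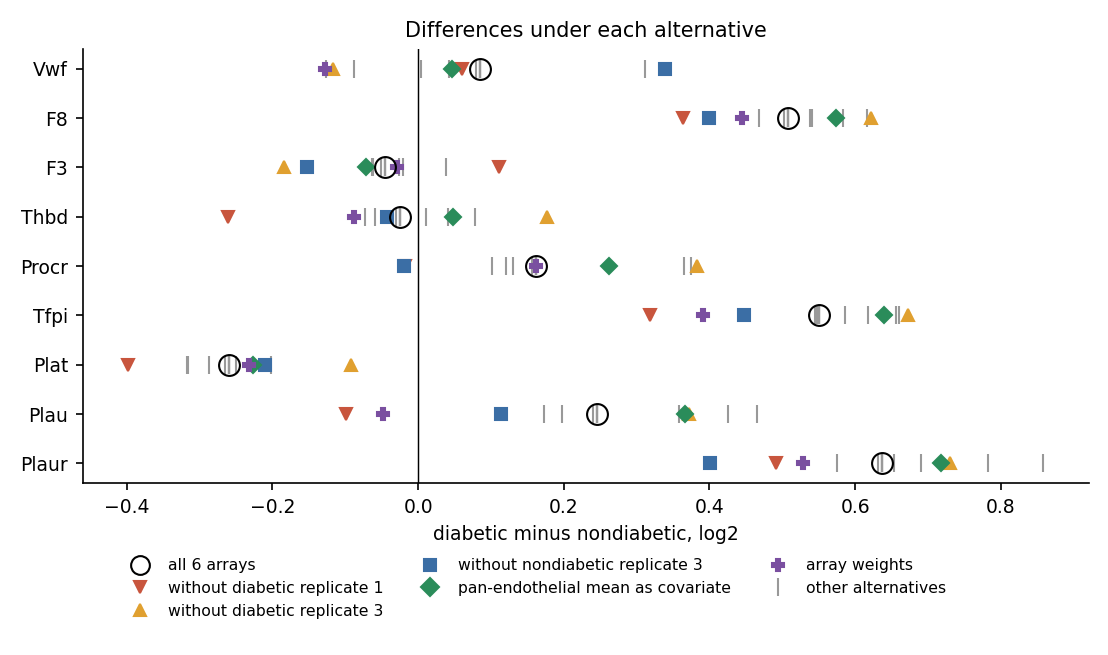
Difference of each gene on the log2 scale with all 6 arrays (open circles) and under each alternative, with symbols for the arrays left out, the covariate fit and the array weights, and grey ticks for the rest. F8, Tfpi and Plaur stay above 0 and Plat below 0 throughout, while Vwf, F3, Thbd, Procr and Plau fall on both sides.

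Markers of other cells and of endothelial subtypes moved with several of the 9 genes, and their part in these differences was not tested except where a covariate is given. The mean of the general endothelial markers was 9.55 on diabetic replicate 1, 8.92 and 8.89 on the other diabetic arrays, and 9.26, 9.43 and 8.95 on the nondiabetic arrays, so the array with the most endothelial signal was also the highest for 6 of the genes. With that mean as a covariate, F8 differed by 0.57, Tfpi by 0.64 and Plaur by 0.72, with unadjusted limma p-values of 0.00498, 0.0036 and 0.0118, and the smallest adjusted p among the 9 genes was 0.816. The mean of 12 sinusoidal markers, which name the wide venous channels of the marrow, was higher on every diabetic array, at 8.05 to 8.62 against 7.57 to 7.77 (exact p = 0.1). The centred profile of that list was the nearest of the 12 marker lists to Tfpi, F8, Plaur and Plau, at 0.081, 0.11, 0.21 and 0.28. Tfpi, F8, Plaur and the list mean were each higher on every diabetic array, and part of their likeness follows from that. Of the 13 sinusoidal genes measured, 12 were tested, and 6 of these were higher on every diabetic array, beside 5.28% of all tested genes. Il6st, 1 of the 6, was apart by only 0.0040. Differences were above 0 for 10 of the 12, beside 54% of all tested genes, and below 0 for Lyve1 (-0.061) and Ackr3 (-0.083). All marker lists were chosen with earlier results of these data known, so such counts are no independent evidence. The arteriolar list, for the small arteries, went the other way. The mean of its 13 genes was 7.59 to 8.31 on the diabetic and 8.01 to 8.46 on the nondiabetic arrays, a difference of -0.33 with overlap (exact p = 0.3), and 12 of the 13 differences were below 0. Igfbp3 (-0.88) and Bmx (-0.51) were lower on every diabetic array, beside 2.67% of all tested genes. The 1 arteriolar gene with a difference above 0 was Ly6c1 (0.50, with overlap), beside 54% above 0 among all tested genes.

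The means of both myeloid lists were also higher on every diabetic array, although most of their genes overlapped between the groups. The mean of 11 monocyte and macrophage genes was 7.37 to 7.60 on the diabetic and 7.02 to 7.26 on the nondiabetic arrays, with 11 of 11 differences above 0, of which 3 had groups that did not overlap, while the macrophage markers Adgre1 and Fcgr1 were dim. The mean of 9 neutrophil genes was 7.32 to 7.40 against 6.77 to 7.11, with 9 of 9 differences above 0 and 1 without overlap. Beside both lists, 54% of all tested genes had differences above 0, and 5.28% were higher on every diabetic array. The neutrophil markers Ltf, Camp, Retnlg, Ly6g and Mmp8 were dim, and 4 of these 5 had differences below 0, all but Ly6g. Over all 14 measured neutrophil genes, a mean added after the data were seen, the groups overlapped, at 6.13 to 6.23 on the diabetic and 5.82 to 6.14 on the nondiabetic arrays. These lists stand beside the Plaur difference of 0.64 because leukocytes carry Plaur, and their part in it was not tested. By centred profile, the monocyte list lay nearer to F8 and Tfpi, at 0.18 and 0.26, than to Plaur, at 0.36. The neutrophil list lay at 0.22, 0.28 and 0.28 from F8, Tfpi and Plaur. For Vwf the nearest list was that of megakaryocytes and platelets, at 0.24, whose mean was highest on replicate 3 of both groups, at 8.90 and 8.56, and 7.58 to 7.95 on the other 4 arrays; that list also holds F5 and Selp. With the megakaryocyte mean as a covariate, a fit added after the data were seen, Vwf differed by -0.13 (SE 0.21) in place of 0.085. Thbd and Procr were nearest to the general endothelial list, at 0.19 and 0.22. Plat was nearest to the mesenchymal and osteoblast list, at 0.20, and F3 to the hepatocyte list, at 0.098. A nearest list thus need not name the cells that gave the signal.

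**Figure D4:**
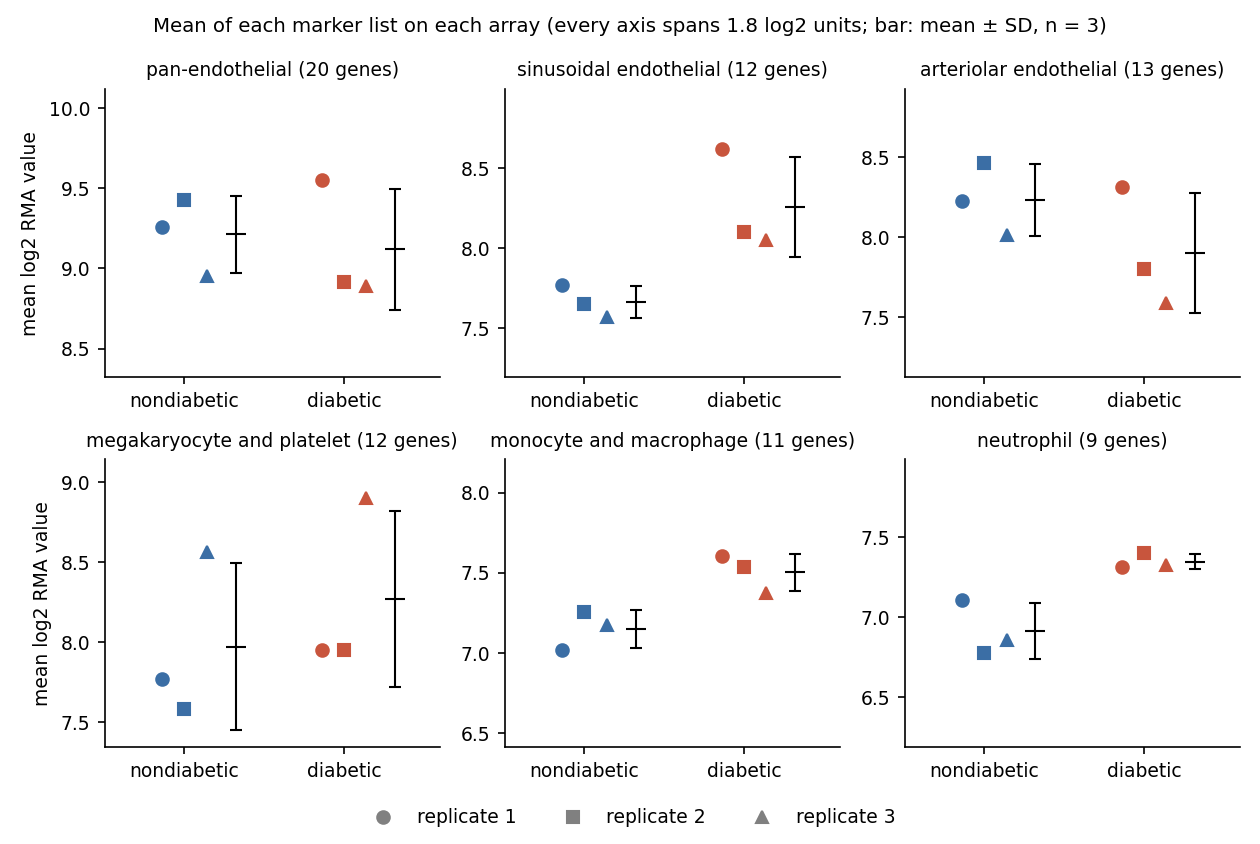
Mean log2 value of the tested genes of 6 marker lists on each array, with nondiabetic arrays in blue, diabetic arrays in red, a symbol for each replicate number and the group mean ± SD (n = 3). The sinusoidal, monocyte and neutrophil means are higher on every diabetic array, and the megakaryocyte mean is highest on replicate 3 of each group.

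The other genes of clotting and its control showed no common direction. Of 93 listed genes beside the 9, 86 were measured and 62 tested, and limma called 0 of them, with 4 at an unadjusted p under 0.05, S100a10, Selp, Ap1m1 and Nr2f2, each with the higher mean in diabetic cells. Differences were above 0 for 32 and below 0 for 30, beside 54% above 0 among all tested genes, and their median was 0.0078. Groups did not overlap for 4 of 62 (Tfpi2, Selp, Ap1m1 and Nr2f2), or 6.45%, beside 7.95% of all tested genes.

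**Figure D5:**
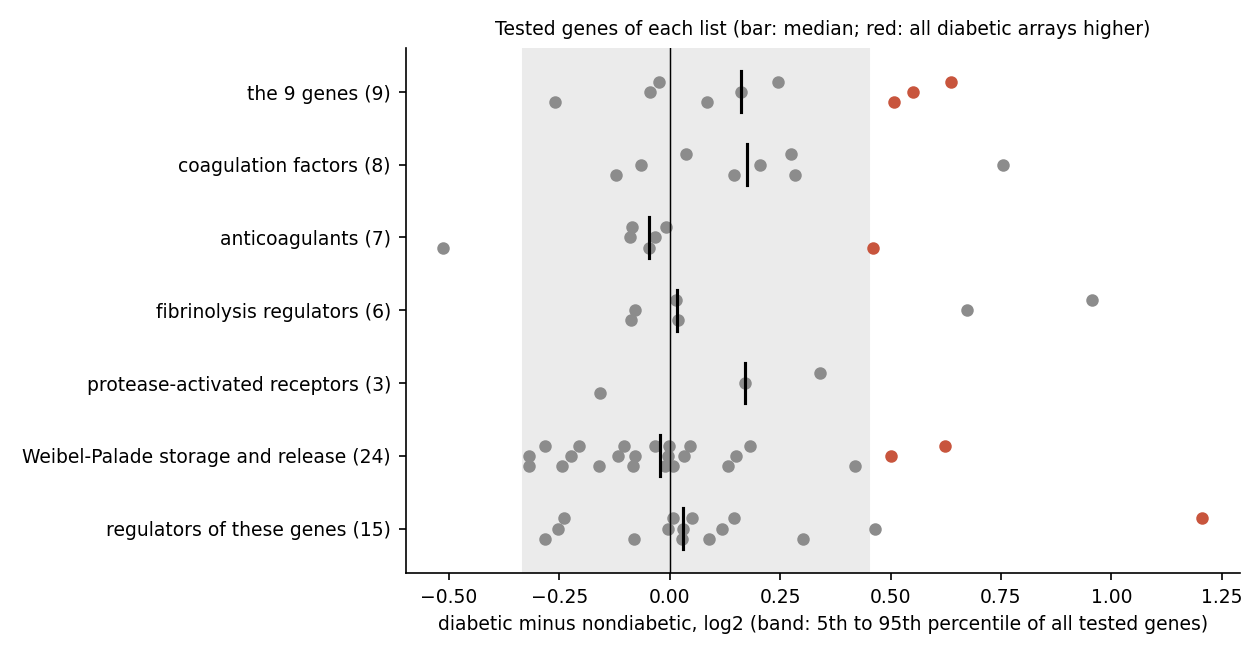
Difference between diabetic and nondiabetic arrays, on the log2 scale, of each tested gene in the 9-gene set and in 6 further lists, with the number of genes in brackets, a bar at the median and red for genes higher on every diabetic array. The grey band spans the 5th to 95th percentile of all tested genes, and most genes of every list fall inside it.

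Most circulating clotting factors, which the liver makes, were dim in these sorts. Of 17 coagulation factor and processing genes measured, 9 were dim, among them F2, F9, F11 and the fibrinogen chains Fga, Fgb and Fgg. The 8 tested genes had a median difference of 0.18, with 6 above 0 and 0 called. F13a1, the clot-crosslinking transglutaminase that monocytes and megakaryocytes carry, read 7.51, 7.48 and 7.70 on the diabetic and 6.63, 7.69 and 6.11 on the nondiabetic arrays. Nondiabetic replicate 2 lay within the diabetic range, and the difference was 0.76 (SE 0.36). Lman1, a cargo receptor that carries factor VIII out of the endoplasmic reticulum, differed by 0.28 (SE 0.18). Ggcx, the vitamin K dependent carboxylase, differed by 0.21 (SE 0.16).

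The list of other anticoagulant genes and their relatives had 7 of 13 measured genes tested. Of these, 1 difference was above 0 and 6 were below, with a median of -0.046. Gas6 was listed only as a vitamin K dependent relative of protein S. It read 8.48, 7.997 and 7.66 on the diabetic and 8.40, 9.004 and 8.27 on the nondiabetic arrays, a difference of -0.51 (SE 0.27). Its groups overlapped through diabetic replicate 1. Tfpi2, a relative of Tfpi, read 6.78, 5.90 and 5.82 on the diabetic and 5.75, 5.67 and 5.69 on the nondiabetic arrays. These groups did not overlap, and the difference of 0.46 (SE 0.26) rested mainly on diabetic replicate 1, without which it was 0.16. Anxa5, which shields anionic phospholipid, differed by -0.086 (SE 0.21).

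Among the fibrinolysis regulators, 12 genes were measured and 6 tested. S100a10, a plasminogen receptor at the cell surface, read 9.41, 9.64 and 9.11 on the diabetic and 8.22, 8.73 and 9.19 on the nondiabetic arrays, a difference of 0.67 (SE 0.26) with overlap. Its partner Anxa2 differed by -0.079 (SE 0.22). Serpinb2, an inhibitor of urokinase that macrophages make, read 6.16, 6.63 and 6.08 on the diabetic and 4.73, 4.88 and 6.40 on the nondiabetic arrays. The groups overlapped through nondiabetic replicate 3, and the difference was 0.96 (SE 0.42), or 1.49 without that array.

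The protease-activated receptors, through which thrombin acts on cells, overlapped between the groups. F2r, the main thrombin receptor of endothelium, differed by 0.17 (SE 0.16). F2rl2 and F2rl3, which platelets of the mouse use, differed by 0.34 (SE 0.40) and -0.16 (SE 0.35), and both were highest on diabetic replicate 3, at 10.12 and 8.02, the array with the highest megakaryocyte mean.

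Genes for the storage and release of Vwf from Weibel-Palade bodies were tested for 24 of 27 measured, with 9 differences above 0, 15 below and a median of -0.022. Selp, the P-selectin stored beside Vwf, read 8.45, 7.95 and 8.09 on the diabetic and 7.35, 7.55 and 7.71 on the nondiabetic arrays. The groups did not overlap, and the difference was 0.62 (SE 0.19), unlike the 0.085 of Vwf; the difference between the 2 genes was not tested. Ap1m1, an adaptor subunit, differed by 0.50 (SE 0.19), also without overlap. Aftph, an adaptor-binding protein needed for these granules, differed by -0.32 (SE 0.17) and Igfbp7, a granule cargo, by -0.083 (SE 0.21).

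Of 15 tested factors that act on genes of this set, 10 had differences above 0 and 5 below, with a median of 0.030. Nr2f2, the nuclear receptor of venous endothelium, read 7.56, 7.08 and 6.48 on the diabetic and 5.38, 6.20 and 5.92 on the nondiabetic arrays. Every diabetic array was above every nondiabetic one, and the difference was 1.20 (SE 0.31) with an unadjusted limma p = 0.00445, an adjusted p = 0.997 and an exact permutation p = 0.1. The NF-kB subunit Rela differed by 0.46 (SE 0.25), the AP-1 subunit Fos by 0.30 (SE 0.20) and the nuclear receptor Nr4a1 by 0.089 (SE 0.20), each with overlap.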

How the data were processed

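Total RNA of sorted cells was amplified with the Ovation Pico WTA System V2 and labelled with biotin, per the labels' protocols. The authors deposited log2 values made with RMA (background correction, a common distribution and summary to probe sets), per the submitters' processing notes; which RMA version and annotation served is not given here. Of 41345 probe sets, 23521 named 1 gene, and the brightest per gene was kept. The test was limma's (version 3.58.1, R 4.3.3; lmFit and eBayes, 6 arrays, no covariate), with Benjamini-Hochberg adjustment over 13308 genes and a threshold of 0.05. Single values had an exact two-sided permutation test. The number of arrays limits the precision. The procedure was tested on simulated data.

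The 9 genes and all lists were chosen with earlier results of these data known. Of 251 list entries, 232 were matched. In each pathway list the genes named were the 3 with the smallest p and the one with the highest mean. Of each marker list the mean over its tested genes was used, and its dim genes were left out. Alternatives were other filters, probe set rules and scalings, variance models, array weights, a replicate block, marker covariates and leaving out each array.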

Additional observations from a re-analysis of the deposited data

How the results depend on the processing

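Under 17 alternatives, limma called 0 of the 9 genes and 0 of the other pathway genes, counting in each those that passed its filter. F8, Tfpi, Plaur and Plat kept their sign, over 0.36 to 0.62, 0.32 to 0.67, 0.40 to 0.86 and -0.40 to -0.092. The count of genes called among all was 0 with the filter at the 60th percentile, which set Rabggtb aside as dim. It was 0 to 1 with an array left out. With array weights the signs of Vwf (-0.13) and Plau (-0.049) turned, the median of the 9 genes was -0.028, and Tfpi had an unadjusted p = 0.0630. Thbd turned with the general endothelial mean (0.048) and the megakaryocyte mean (0.078) as covariates, the latter also turning Vwf (-0.13), Anxa5 (0.037) and Igfbp7 (0.047). With an array left out, differences that crossed 0 ranged from -0.12 to 0.34 for Vwf, -0.18 to 0.11 for F3, -0.26 to 0.18 for Thbd, -0.020 to 0.38 for Procr and -0.10 to 0.47 for Plau. They ranged from -0.26 to 0.041 for Anxa5, -0.27 to 0.035 for Anxa2, -0.57 to 0.060 for F2rl3, -0.17 to 0.72 for F2rl2, -0.27 to 0.089 for Igfbp7 and -0.027 to 0.26 for Nr4a1. The median of the other pathway genes was -0.011 with quantile normalization again. The cause was not tested. With a replicate block the median of the 9 genes was 0.16 and 0 were called. Same-numbered arrays deviated from their group means with correlations of -0.036, -0.064 and 0.016. These values gave no sign of pairing by number, but so few arrays in each group cannot settle whether the numbers pair the arrays. F3 is limited by its signal, and was left out as dim at the 60th percentile.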
